A study of Mus musculus with 6 samples.

Results

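Oxidative phosphorylation runs through 4 respiratory complexes, a mobile carrier and the ATP synthase of the mitochondrial inner membrane, and the nuclear genes of its subunits were followed here in T cells responding to donor antigen. Members were the genes whose array symbol starts with Ndufa, Ndufb, Ndufc, Ndufs, Ndufv, Uqcr or Atp5, the genes Sdha to Sdhd, Cyc1 and Cycs, and symbols of the Cox4 to Cox8 kind. The arrays listed 89 such genes with 139 probes, among 45281 probes in all. Each gene was read from the probe with the highest mean signal. Of the 89 genes, 75 were measured, their probe being brighter than the array background (detection p under 0.01) on 1 or more of the 6 arrays, and 69 were detected on all 6 arrays. The whole table of measured features held 10679 genes or unnamed probes.

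The cells came from spleen and lymph nodes of male C57BL/6 mice of 3 kinds. Naive mice were healthy and carried no graft. Rejecting mice carried tail skin of BDF1 donors, a cross of C57BL/6 and DBA/2, and were taken on day 7 with no treatment. Tolerant mice carried the same type of graft, had received a transfusion of donor cells and the anti-CD40L antibody MR-1, and were taken on day 100, so graft, treatment and day differ together between the statuses. All T cells, naive ones included, then spent 20 to 21 h with donor splenocytes from which T cells had been removed, and were sorted on CD3 and CD69 into a CD69+ fraction, enriched for cells that answered the donor antigen, and a CD69- fraction. The fraction of each sample was taken from its title, since the sorting text in the labels writes CD69+ for both. No sample is a culture without donor cells. Each combination of status and fraction is 1 array of 0.55 µg total RNA, so a difference is relative to equal RNA input, and fewer cells of a type cannot be told apart from less RNA per cell. No combination was repeated, so p-values rest on how far the CD69 difference varies over the 3 status pairs. Status contrasts use that same spread, with both fractions of a culture standing in for replicates. The 6 arrays limit the precision.

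Complex I takes electrons from NADH and complex II takes them from succinate. Both hand them to coenzyme Q, and complex III passes them on to cytochrome c, which carries them to complex IV, where oxygen is reduced. Complexes I, III and IV pump protons, and complex V, the ATP synthase, uses the gradient to make ATP. Resting T cells rely on respiration, and activated T cells are known to enlarge their mitochondria while they also turn up glycolysis.

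Array medians ran from 161.5 to 174.2 signal units, and 12669 to 13469 probes per array were detected. Of 10 T cell markers, 8 were measured, with Cd3d, Cd3e and Cd3g among them. The Cd8a probe was not detected, while Cd8b1 was. Activation markers rose in CD69+ cells in 7 of 7 measured cases, Irf4 by a log2 difference of 5.27, Myc by 2.50 and Cd69, the gene of the sort, by 1.53. Of the B cell list, Cd79b was detected on all 6 arrays and Blk on 5, while Ms4a1, Pax5, Cd22 and Cr2 were not detected on any array. Of 8 myeloid and dendritic markers only Fcgr3 was detected, on 1 array.

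Oxidative phosphorylation genes were mostly higher in CD69+ than in CD69- cells. Of the 75 measured members, 45 rose in CD69+ cells (60%, against 29.6% of all features tested), 7 fell (9.33%, against 33.1%) and 23 did not pass the threshold of an adjusted p of 0.05 (limma, status as a block, Benjamini-Hochberg over all 10679 features). Of all features, 62.7% passed in one direction or the other. The median log2 difference was 0.52 over the members and -0.05 over all features. Among features with a mean signal of at least 500, which 66 of the 75 members reach, 31.3% rose and 34.7% fell. Atp5e, Cox7a2 and Ndufb2 were detected in CD69+ libraries only, so they entered through the side where they are high. With detection required on all 6 arrays, 41 of 69 members rose and 6 fell, with 2481 and 2957 of 8080 features. The 3 CD69+ libraries lay above all 3 CD69- libraries for 54 members (33% of all features did so) and below them for 9 (35.5%). In all 52 members that passed, the 3 status pairs moved the same way. The test favours such genes, since its error comes from the spread of the pair differences. Without the rejecting pair the counts were 28 higher and 5 lower, with 2206 and 2384 of all features. Without the naive pair they were 31 and 4, with 2421 and 2650 of all features. None of the 52 changed sign with a pair left out, which follows from their 3 pairs sharing a sign.

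**Figure D1:**
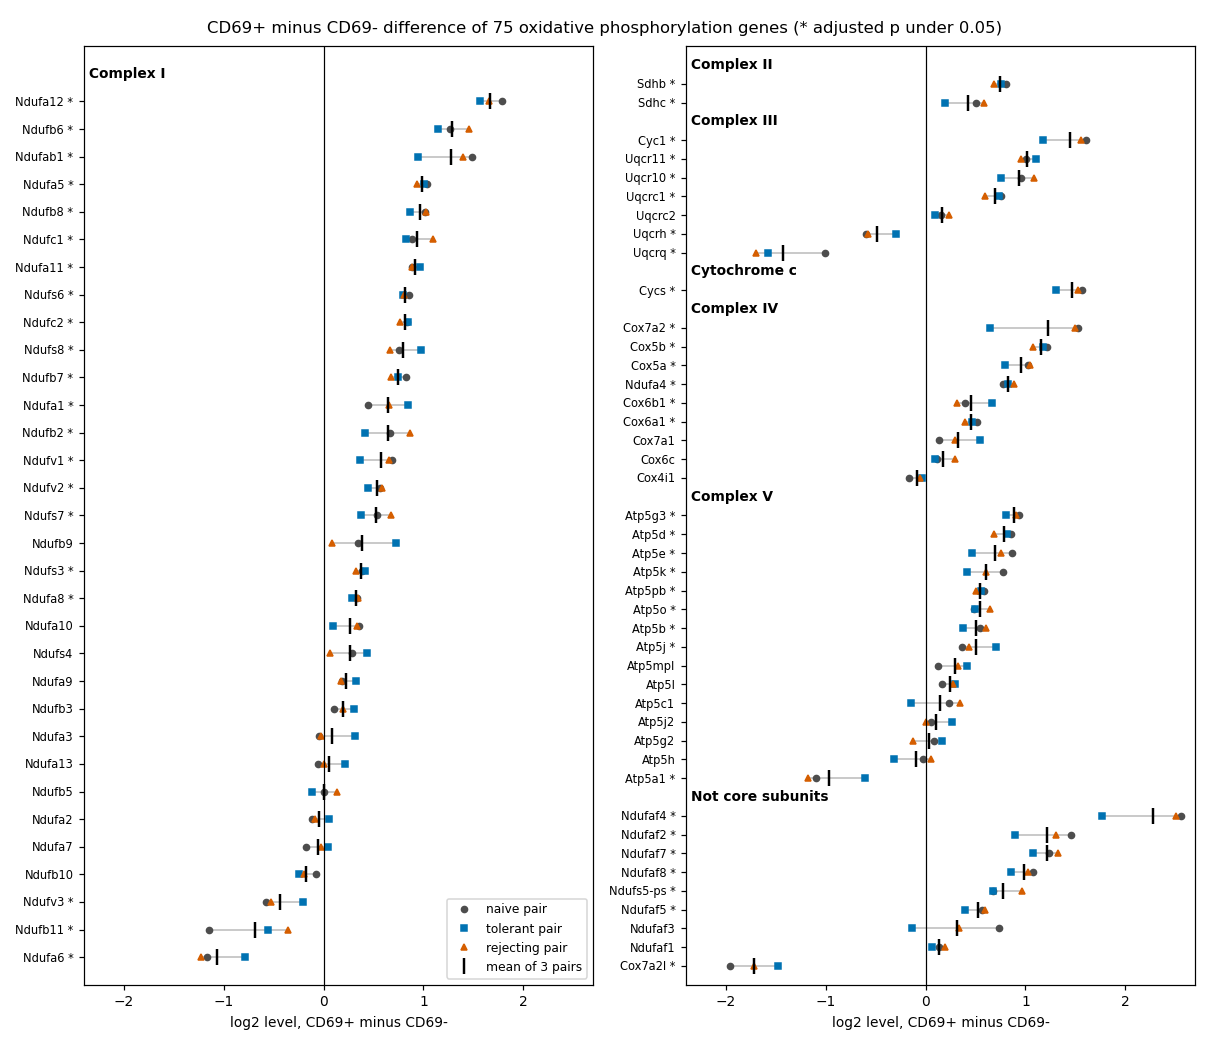
Log2 level in CD69+ minus CD69- cells for the 75 measured members, grouped by complex. Points are the naive, tolerant and rejecting pairs (1 library minus 1), the black tick is their mean, and an asterisk marks an adjusted p under 0.05. Most ticks lie to the right of 0, Ndufaf4 furthest, and Cox7a2l lies furthest to the left.

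Red cell transcripts moved the other way. The 3 measured erythroid genes, of 8 listed, all fell in CD69+ cells by a median of -2.17. Their summed linear level ran from 1258 to 5397 in the CD69+ and from 2697 to 37395 in the CD69- libraries. The red cell enzyme gene Alas2 and the membrane gene Slc4a1 were not detected. The summed T cell marker level was 140335 to 175939 in CD69+ and 200420 to 233665 in CD69- libraries, with 5 of 8 markers falling. Of the B cell genes Blk rose (2.32, adjusted p = 0.00191) and Cd79b did not pass (-0.54, adjusted p = 0.0707). Their summed level was 579 to 1903 in CD69+ and 677 to 1108 in CD69- libraries. Of the natural killer genes Klrb1c rose (1.38, adjusted p = 0.00459) and Klre1 did not pass (0.52), with sums of 213 to 506 and 118 to 253. Klrb1c was detected in CD69+ libraries only, so it entered through the side where it is high. Ncr1, Klrk1 and Klra8 were not detected. Of the plasma cell genes Xbp1 rose (1.05, adjusted p = 0.00182) and Mzb1 did not pass (2.05, adjusted p = 0.0932), with sums of 12136 to 14239 and 5230 to 7331, and Jchain, Sdc1 and Prdm1 were not detected. Fcgr3, detected in tolerant CD69- cells and on no other array, fell (adjusted p = 0.00138), with levels of 31 to 34 and 89 to 139. The part of these shifts in the results for the members was not tested.

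Of 34 complex I genes listed, 32 were measured, and 18 of these rose, 3 fell and 11 did not pass, with a median of 0.46. Ndufa12, an accessory subunit late in assembly, stood at log2 levels of 13.70, 13.42 and 13.47 in naive, tolerant and rejecting CD69+ cells and at 11.92, 11.85 and 11.81 in the matching CD69- cells. The fractions did not overlap, and the difference was 1.67 (SE 0.11, adjusted p = 0.00092), a 3.18-fold rise. Ndufb6, a membrane arm subunit, was at 14.28, 14.13 and 14.25 against 13.01, 12.99 and 12.79 (1.29, SE 0.12). Again every CD69+ library was above every CD69- library.

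Ndufab1 is the mitochondrial acyl carrier protein, which serves fatty acid synthesis as well as complex I. Its level was 14.33, 13.64 and 14.14 in naive, tolerant and rejecting CD69+ cells and 12.84, 12.69 and 12.74 in CD69- cells (1.28, SE 0.15, adjusted p = 0.00217). Its other 2 detected probes gave differences of 1.49 and 1.15. Genes of the catalytic core rose as well. Ndufv1, whose product binds and oxidises NADH, and its partner subunit Ndufv2 differed by 0.57 and 0.53. The iron-sulphur and quinone-site subunits Ndufs3, Ndufs7 and Ndufs8 differed by 0.37, 0.53 and 0.80. All 5 passed. These core genes were chosen for description after their values were seen, and the core gene Ndufs1 was not detected.

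The 3 falling complex I genes are accessory subunits. Ndufa6 was at 13.90, 14.35 and 14.06 in naive, tolerant and rejecting CD69+ cells and at 15.07, 15.14 and 15.29 in CD69- cells. The fractions were fully apart, with a difference of -1.06 (SE 0.14, adjusted p = 0.00277), or 2.09-fold more in CD69- cells. Ndufv3 differed by -0.44 (SE 0.13, adjusted p = 0.0343), and its other 2 probes by -1.26 and -0.46. Ndufb11 differed by -0.68 (SE 0.18, adjusted p = 0.0266) near the detection limit, being detected on 5 of 6 arrays. With array medians centred in place of the quantile step, Ndufv3 and Ndufb11 no longer passed (adjusted p = 0.163 and 0.0748). Nor did they without the naive pair (0.154 and 0.0839), and Ndufv3 did not without the rejecting pair (0.194). Median centring moved the median of all features from -0.05 to 0.09, and the members' median minus that of all features was 0.57 before and 0.59 after.

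Complex II is shared with the tricarboxylic acid cycle, where it is succinate dehydrogenase. Sdhb, its iron-sulphur subunit, was at 11.58, 11.35 and 11.49 in naive, tolerant and rejecting CD69+ cells and at 10.77, 10.59 and 10.80 in CD69- cells. Each CD69+ library was above each CD69- library (0.75, SE 0.11, adjusted p = 0.00363), and a second probe gave 0.81. The membrane anchor Sdhc differed by 0.43 (SE 0.13, adjusted p = 0.0374), from 0.19 in the tolerant pair to 0.58 in the rejecting pair. Its adjusted p was 0.15 without the naive pair and 0.228 without the rejecting pair. The catalytic flavoprotein Sdha and the other anchor, Sdhd, were not detected on any array. Detection rests on the probes of each gene, so an undetected gene here is not shown to lack RNA.

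Complex III held rises and falls side by side. Of 7 measured genes, of 8 listed, 4 rose, 2 fell and 1 did not pass, with a median of 0.69. Cyc1, the cytochrome c1 that delivers electrons to cytochrome c, was at 12.74, 12.13 and 12.55 in naive, tolerant and rejecting CD69+ cells and at 11.13, 10.96 and 10.99 in CD69- cells. The fractions were clearly apart (1.45, SE 0.14, adjusted p = 0.00143), and the tolerant CD69+ library was the lowest of the CD69+ libraries. The small subunits Uqcr11 (1.02, SE 0.11) and Uqcr10 (0.93, SE 0.12) rose too.

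Another small subunit, Uqcrq, was at 9.46, 9.27 and 9.11 in naive, tolerant and rejecting CD69+ cells and at 10.47, 10.85 and 10.81 in CD69- cells. It was lower in every CD69+ library (-1.43, SE 0.17, adjusted p = 0.00237), 2.69-fold in all. Uqcrh, the hinge subunit near cytochrome c1, differed by -0.49 (SE 0.12, adjusted p = 0.0196), with pair values of -0.60, -0.30 and -0.58. Its adjusted p was 0.0987 without the naive pair and 0.137 without the rejecting pair. The core protein Uqcrc2 did not pass (0.16, SE 0.11), and the Rieske protein gene Uqcrfs1 was not detected.

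Cycs, somatic cytochrome c, shuttles electrons between complexes III and IV and triggers apoptosis when released. Its level was 13.18, 12.48 and 13.13 in naive, tolerant and rejecting CD69+ cells and 11.62, 11.18 and 11.61 in CD69- cells. The tolerant library was the lowest in both fractions, yet no CD69+ library reached down to a CD69- one (1.46, SE 0.12, adjusted p = 0.0011, a 2.76-fold rise). A second probe, detected on 5 arrays, gave 0.55.

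In complex IV, cytochrome c oxidase, 9 of 16 listed genes were measured, and 6 rose, 0 fell and 3 did not pass (median 0.46). Cox5b, a zinc-binding subunit on the matrix side, was at 15.27, 15.14 and 15.04 in naive, tolerant and rejecting CD69+ cells and at 14.05, 13.97 and 13.96 in CD69- cells. The fractions were apart by 1.16 (SE 0.11, adjusted p = 0.0014). Cox5a, its matrix-side neighbour, differed by 0.96 (SE 0.12). Ndufa4, first catalogued in complex I and since assigned to complex IV, differed by 0.83 (SE 0.11), with pair values of 0.78, 0.82 and 0.89.

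Several complex IV subunits come as paired isoforms, one general and one for muscle, testis or other tissues. Cox4i1, the general form of subunit 4, was at 14.92, 14.93 and 14.89 in naive, tolerant and rejecting CD69+ cells and at 15.09, 14.96 and 14.95 in CD69- cells. It did not pass (-0.09, SE 0.11, adjusted p = 0.501), and the fractions lay close together. Its counterpart Cox4i2 was not detected, nor were Cox6a2, Cox6b2, Cox7b2, Cox8b and Cox8c. Cox7b, the general form beside Cox7b2, was not detected either. It has 1 probe, with signals of 133 to 177, and whether that probe works was not tested. The general forms Cox6a1 (0.45, SE 0.11, adjusted p = 0.0166) and Cox6b1 (0.46, SE 0.12, adjusted p = 0.0274) rose. Without the naive pair their adjusted p was 0.0891 and 0.0844, and without the rejecting pair 0.103 and 0.094. The muscle form Cox7a1 did not pass (0.32, SE 0.13, adjusted p = 0.0803). The general form Cox7a2 was detected in all CD69+ and no CD69- library, so it entered through CD69+ cells alone and the filter favours its rise. It was at least 1.80-fold higher in CD69+ cells (adjusted p = 0.00668), with the CD69- side set at the lowest signal of detected probes.

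In the ATP synthase, 15 of 16 listed genes were measured, and 8 rose, 1 fell and 6 did not pass (median 0.50, or 0.29 over those detected on all 6 arrays). Atp5g3, one of the genes for the c subunit of the rotor ring, was at 15.96, 15.75 and 15.88 in naive, tolerant and rejecting CD69+ cells and at 15.03, 14.95 and 14.98 in CD69- cells. The fractions did not overlap (0.88, SE 0.11, adjusted p = 0.00238). Atp5g2, which encodes the same mature c subunit, was at 12.68, 12.86 and 12.51 against 12.60, 12.70 and 12.64. There the fractions overlapped (0.04, SE 0.12, adjusted p = 0.797). The difference between these genes was not itself tested.

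Of the stalk subunits, Atp5d rose (0.79, SE 0.11, adjusted p = 0.00341). Atp5e was at least 1.24-fold higher in CD69+ cells (adjusted p = 0.00831), with an adjusted p of 0.06 when the rejecting pair was left out. It was undetected in every CD69- library, so it entered through CD69+ cells alone and the filter favours its rise. The catalytic beta subunit Atp5b rose by 0.51 (SE 0.11, adjusted p = 0.014). Its signal of 65643 to 69490 in CD69+ cells lay close to the highest signals of the arrays, 70134 to 71150, and it was 40817 to 51355 in CD69- cells. The files carry no saturation flag.

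Atp5a1, the alpha subunit that forms the catalytic head together with beta, had the only fall of complex V, by -0.97 (SE 0.15, adjusted p = 0.00517). A second probe of Atp5a1, detected on all 6 arrays, gave 0.69, so the direction for this gene is not settled. Taken as the mean of both probes it was -0.14 and did not pass. Over all members, 27 further probes were detected and 23 had the direction of the probe used. Apart from Atp5a1, the exceptions were Atp5j (0.50 against -0.61), Ndufb8 (0.97 against -0.18) and Atp5l (0.25 against -0.02), named after their values were seen.

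Beside the subunits, the symbol rule took in 10 genes that are not core parts of a complex, 9 of them measured, of which 6 rose and 1 fell (median 0.77). Ndufaf4, an assembly factor of complex I, was the member furthest apart. Its level was 12.78, 11.87 and 12.55 in naive, tolerant and rejecting CD69+ cells and 10.22, 10.10 and 10.05 in CD69- cells. The fractions were far apart (2.28, SE 0.20, adjusted p = 0.00124, a 4.85-fold rise), and the tolerant CD69+ library lay below the other two. A second probe gave 1.05.

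The complex I assembly factors Ndufaf2 (1.22, SE 0.15) and Ndufaf7 (1.21, SE 0.11), the latter an arginine methyltransferase, rose as well. Ndufs5-ps is annotated as a pseudogene. It rose by 0.77, and signal from a near-identical Ndufs5 transcript cannot be told apart from its own.

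Cox7a2l, known for joining complexes III and IV into a supercomplex, fell furthest. It was at 13.10, 13.73 and 13.34 in naive, tolerant and rejecting CD69+ cells and at 15.06, 15.21 and 15.06 in CD69- cells. The fractions did not overlap (-1.72, SE 0.14, adjusted p = 0.0011), and CD69- cells held 3.30-fold more. In C57BL/6 mice this gene is known to encode a shortened protein. The arrays measure its RNA only.

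**Figure D2:**
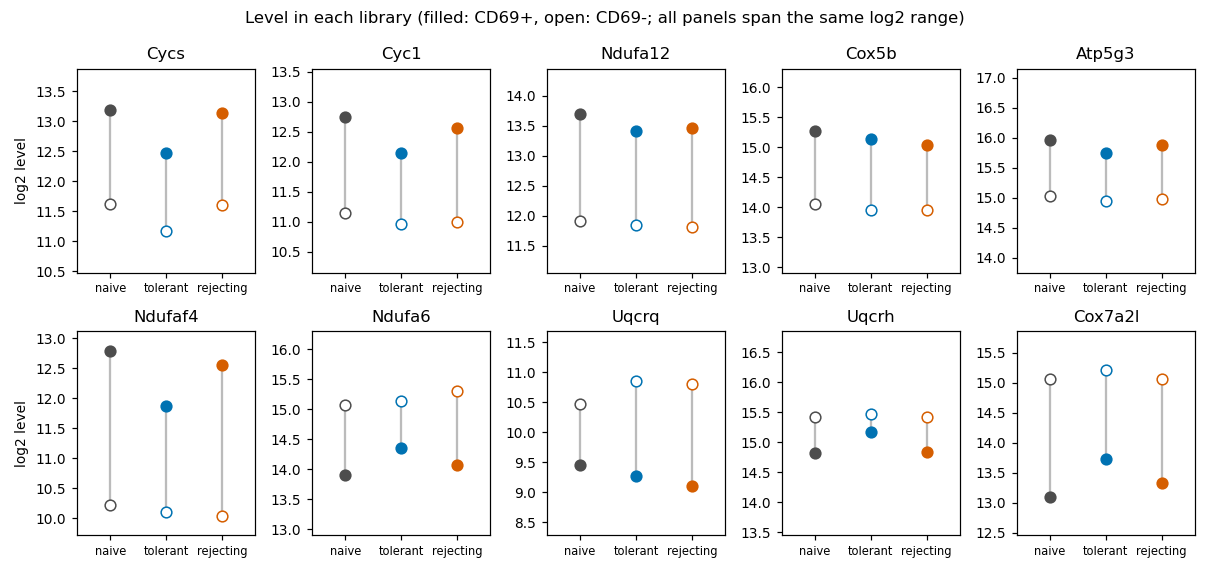
Normalized log2 level of 10 members in each of the 6 libraries, filled for CD69+ and open for CD69-, with a line joining the fractions of a status. Cycs, Cyc1, Ndufa12, Cox5b, Atp5g3 and Ndufaf4 lie higher in CD69+ cells and Ndufa6, Uqcrq, Uqcrh and Cox7a2l lower, in all 3 statuses.

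Mitochondrial DNA encodes 13 partner subunits of complexes I, III, IV and V. The arrays listed 8 of them, of which 6 were detected. In limma 0 of the 6 rose, at an unadjusted p under 0.05 as well, and 1 fell, with a median of -0.35. ATP6, a membrane subunit of the ATP synthase, was at 10.50, 10.36 and 10.74 in naive, tolerant and rejecting CD69+ cells and at 10.92, 10.94 and 10.93 in CD69- cells (-0.40, SE 0.13, adjusted p = 0.0416). All CD69+ values were below all CD69- values. COX2 of complex IV differed by -0.51 (SE 0.18, adjusted p = 0.0605), ND1 and ND5 of complex I by -0.35 each, ND4 by -0.05 and cytochrome b, CYTB, by 0.03. CYTB, at levels of 15.83 to 16.04, and ND4, at 15.39 to 15.74, lay near those of Atp5b (15.46 to 16.08). The CD69+ signals of Atp5b were close to the highest of the arrays. Whether differences of such bright probes are compressed was not tested.

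None of the mitochondrially encoded genes rose under any of the 12 alternatives, and 0 to 2 fell. Among these alternatives the value table and no background correction gave the same counts and median. Their median stayed below 0, at -0.14 with array medians centred. For comparison, the medians of all measured nuclear genes were 0.46 in complex I, 0.69 in III, 0.46 in IV and 0.50 in V, with single nuclear genes on both sides of 0 in each. A difference between nuclear and mitochondrial genes was not itself tested, and copies of mitochondrial DNA in the nuclear genome could add to the signal of these probes.

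Complex by complex, the pair medians were alike. The lowest and highest median of complex I over the 3 status pairs were 0.41 and 0.47, of complex II 0.47 and 0.66, of complex III 0.60 and 0.75, of complex IV 0.39 and 0.64, and of complex V 0.37 and 0.43. Over all features the pair medians were -0.05 to -0.03. Complex III lay above complexes I, IV and V in every pair. These differences between complexes were not tested.

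**Figure D3:**
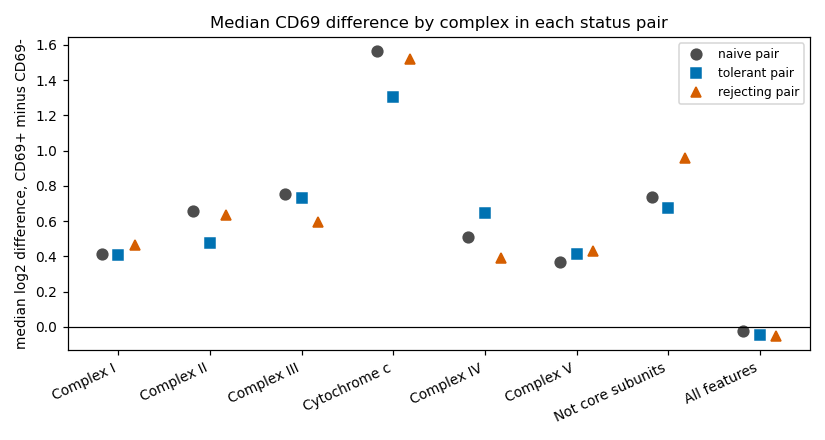
Median log2 difference between CD69+ and CD69- cells by complex, 1 point per status pair, with all measured features on the right. Complexes I to V lie between 0.37 and 0.75 in each pair, cytochrome c is the single gene Cycs, and all features lie close to 0.

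Genes around the respiratory chain gave a mixed picture by group. For scale, 29.6% of all features rose and 33.1% fell. The lists were chosen with earlier results of these data known, and the examples were picked after their values were seen, mostly from the genes furthest apart. Of 36 measured assembly factors of the complexes, of 47 listed, 20 rose and 3 fell (median 0.45). Besides members named above, Ttc19 (1.26), a complex III factor, and Acad9 (1.10), a complex I factor, rose. The complex IV factors Cmc1 (-0.80) and Surf1 (-0.73) fell.

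Protein import leads nuclear-encoded subunits into mitochondria, and 18 of 21 measured import genes rose and 1 fell (median 0.91). The matrix chaperonin Hspd1 rose by 2.55, the outer membrane channel Tomm40 by 2.25 and the small Tim chaperone Timm10 by 1.92, while the inner membrane channel gene Timm17b fell by 0.38.

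Coenzyme Q links complexes I and II to complex III. Of 10 measured genes for its synthesis and handling, 5 rose and 1 fell (median 0.69). The hydroxylase Coq7 differed by 2.38 and Coq10a by -0.73. Coq4 differed by 1.62 but was undetected in every CD69- library, so it entered through CD69+ cells alone. With detection required on all 6 arrays, 4 of 8 measured genes rose and 1 fell. Of 9 measured carriers and channels, 6 rose and 1 fell (median 0.42), the citrate carrier Slc25a1 at 1.66 and the ADP/ATP carrier Slc25a5 at 1.11.

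Of 18 measured genes of the tricarboxylic acid cycle and pyruvate dehydrogenase, 8 rose and 2 fell (median 0.27). With the mean of all probes of a gene it was 7 and 4 (median 0.11), and with array medians centred 11 and 2 (median 0.49). Idh3a, a subunit of the NAD-linked isocitrate dehydrogenase, rose by 1.30 and fumarase, Fh1, by 1.17. Pdk1, a kinase that shuts off pyruvate dehydrogenase, differed by -1.97 and the NADP-linked Idh2 by -1.16.

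Among 19 measured genes of mitochondrial biogenesis and mitochondrial DNA expression, 10 rose and 3 fell (median 0.55). The mitochondrial topoisomerase Top1mt (1.99), the RNA-binding pair Lrpprc (1.90) and Slirp (1.11), the coactivator Pprc1 (1.87) and both chains of GABP, Gabpb1 (1.15) and Gabpa (0.74), rose. The transcription factor Nrf1 (-0.80), the coactivator Ppargc1b (-0.94) and the polymerase subunit Polg2 (-1.01) fell. Tfam, which packages mitochondrial DNA, did not pass (-0.10, SE 0.11, adjusted p = 0.474). Without the rejecting pair the numbers that rose were 12 for assembly factors, 15 for import, 4 for coenzyme Q, 3 for carriers, 5 for the tricarboxylic acid cycle and 7 for biogenesis. In that fit 2206 of all 10679 features rose.

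Promoters of respiratory genes are known for sites of the factors NRF1, GABPA, YY1 and ERRalpha, and MYC, which activated T cells induce, binds E-boxes. RefSeq promoter windows of GRCm38.p6, 250 bases before to 50 after a gene's start, were at hand for 73 of the 89 members and were searched on both strands, counting a gene once if any of its windows matched. The NRF1 motif, GCGCA and GCGC with 1 free base between them, was in 18 of the 73 (24.7%), in 12.5% of the 6842 genes measured on the arrays that have a window and in 5.19% of all 27025 genes with one. Among members that rose it was in 11 of 42, among those that did not pass in 3 of 17, and among those that fell in 1 of 5, which is Ndufa6.

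Of the windows with a match, 5 are shown by their last 120 bases before the start, to display where the motif sits in members that rose (Ndufaf4, Ndufa11, Ndufs6, Cox6a1) and in one that did not pass (Atp5c1). They were chosen after the values were seen and run 5′ to 3′ on the gene's strand, with matches to a searched motif in capitals. All 5 stretches hold an NRF1 match, and the stretch of Cox6a1 also holds the GABPA motif on the opposite strand.
Ndufaf4, chr4:24897963-24898082, plus strand: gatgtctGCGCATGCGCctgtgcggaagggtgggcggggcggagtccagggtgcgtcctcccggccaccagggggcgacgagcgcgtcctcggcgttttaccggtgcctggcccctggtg
Ndufa11, chr17:56717642-56717761, plus strand: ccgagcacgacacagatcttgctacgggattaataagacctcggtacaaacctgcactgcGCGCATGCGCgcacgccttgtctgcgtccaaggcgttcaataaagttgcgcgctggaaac
Ndufs6, chr13:73328483-73328602, minus strand: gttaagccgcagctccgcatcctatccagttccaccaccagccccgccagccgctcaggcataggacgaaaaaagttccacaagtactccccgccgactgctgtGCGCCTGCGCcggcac
Cox6a1, chr5:115348959-115349078, minus strand: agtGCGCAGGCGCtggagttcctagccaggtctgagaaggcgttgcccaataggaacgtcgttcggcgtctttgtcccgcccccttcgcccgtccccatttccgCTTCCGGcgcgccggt
Atp5c1, chr2:10080433-10080552, minus strand: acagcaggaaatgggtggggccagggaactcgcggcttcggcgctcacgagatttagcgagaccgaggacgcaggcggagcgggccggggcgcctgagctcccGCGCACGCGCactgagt

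Beside these sequences, Ndufaf4 had the furthest rise (2.28), Ndufa11 differed by 0.91, Ndufs6 by 0.82 and Cox6a1 by 0.45, while Atp5c1 stood at 0.14 (SE 0.14, adjusted p = 0.414). The GABPA motif CCGGAAG was in 24.7% of the members and 22.3% of measured genes, the YY1 motif AAGATGG in 15.1% and 9.38%, the ERRalpha motif AAGGTCA in 9.59% and 3.92%, and the E-box CACGTG in 6.85% and 12.4%. These are descriptions of letters in a window, with no test and no statement on binding.

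Statuses were next compared over both fractions together, which asks for differences between kinds of mice that do not depend on CD69. With fraction as a block, 0 of the 75 members passed between tolerant and naive cells (0.00936% of all features did), 0 between rejecting and naive cells (0%) and 0 between rejecting and tolerant cells (0.0187%) in limma. The smallest adjusted p among members was 0.403, 0.97 and 0.259. An unadjusted p under 0.05 was found for 4 members between tolerant and naive cells (12.1% of all features), 0 between rejecting and naive cells (4.75%) and 1 between rejecting and tolerant cells (14.3%). The members' medians were -0.07, -0.08 and -0.03.

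Cycs came closest. It was lower in tolerant than in naive cells in both fractions (-0.57, SE 0.14, adjusted p = 0.403) and higher in rejecting than in tolerant cells (0.54, SE 0.14, adjusted p = 0.259). These contrasts share the tolerant libraries. The other members with an unadjusted p under 0.05 between tolerant and naive cells were the complex I subunit Ndufb5 (-0.42, SE 0.14), Ndufaf7 (-0.38, SE 0.14) and Ndufb2 (-0.53, SE 0.16), the last detected on 2 arrays only. None of them passed after adjustment.

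Among CD69+ cells alone, a status is a single library and its differences are given as values, without a test. A member was counted as apart where its levels differed 1.5-fold or more, a log2 difference of 0.585, and the brighter library had a signal of 500 or more. Tolerant cells were lower than naive cells for 5 members (6.29% of all features were) and higher for 1 (8.92%). Rejecting cells differed from naive cells for 0 members (1.68% higher, 0.375% lower). They were higher than tolerant cells for 2 members (4.77%) and lower for 0 (6.53%).

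The 5 members lower in tolerant CD69+ cells were Ndufaf4 (-0.92, 1.89-fold), Cycs (-0.70, 1.63-fold), Ndufab1 (-0.69, 1.61-fold), Cyc1 (-0.61) and Ndufaf2 (-0.59). All 5 are among the members that rose in CD69+ cells, as 45 of the 75 did. Both comparisons use the same CD69+ libraries, and the share among all rising features is not given here. The 1 member higher was Cox7a2l (0.63, 1.55-fold), which fell in CD69+ cells. Next below the fold were Atp5a1 (0.48), Ndufa6 (0.46) and the complex I subunit Ndufa3 (0.44) on the higher side. Atp5a1 and Ndufa6 had also fallen in CD69+ cells, with the second Atp5a1 probe going the other way. The members higher in rejecting than in tolerant CD69+ cells were Ndufaf4 (0.69) and Cycs (0.65), and both contrasts share the tolerant library.

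The tolerant CD69+ library was also the lowest of the CD69+ libraries in summed activation markers, at 57114 against 77967 in naive and 74926 in rejecting cells, with a median difference from naive of -0.58 over 7 genes. The part of this in the members' values was not tested. In the same library the summed erythroid level was 1258, against 5397 and 5171, and the 2 measured B cell genes summed to 1903, against 807 and 579. The plasma cell gene Mzb1 stood 3.89 above naive CD69+ cells, and the natural killer genes Klre1 and Klrb1c 1.57 and 0.99 above, their part being untested too. Median differences from naive CD69+ cells were -0.29 for assembly factors, -0.33 for protein import and -0.54 for coenzyme Q genes. They were -0.24 for biogenesis, -0.19 for carriers and channels and -0.05 for the tricarboxylic acid cycle. Mitochondrially encoded subunits stood at -0.02 and all features at 0.001.

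By complex, the median tolerant minus naive difference in CD69+ cells was -0.02 for complex I, -0.23 for II, -0.14 for III, -0.13 for IV and -0.03 for V. For the genes that are not core subunits it was -0.33, with 8 of 9 below 0. The median rejecting minus naive difference in CD69+ cells ran from -0.13 in complex III to 0.05 in complex V. The furthest rejecting minus naive values among members detected on both arrays were those of Ndufv3 (0.30), Cox7a2l (0.24), Cox7a2 (0.23) and Ndufa6 (0.17) on one side and Uqcrq (-0.35), Uqcrc1 (-0.29), Ndufaf8 (-0.29) and Ndufaf2 (-0.26) on the other.

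**Figure D4:**
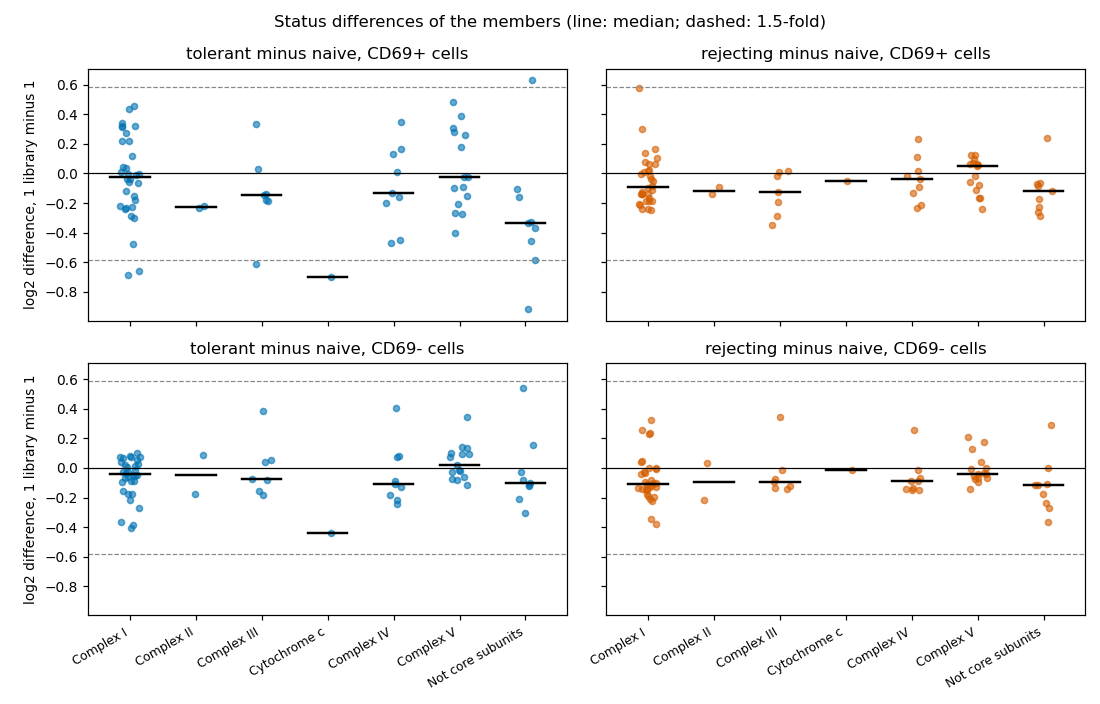
Log2 difference of each measured member between tolerant or rejecting cells and naive cells, within CD69+ (top) and CD69- cells (bottom), by complex. Points are members (1 library minus 1), bars are medians and dashed lines mark 1.5-fold. Tolerant CD69+ cells show the widest scatter, from -0.92 to 0.63, and no complex is shifted as a whole past the dashed lines, cytochrome c being the single gene Cycs.

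In CD69- cells 0 members were apart between any statuses under the same fold and signal minimum. The normalised level of Ndufb9, detected on 5 arrays with a signal under that minimum, was 1.64-fold higher in rejecting than in tolerant cells, where its deposited signals were 251 and 216. All features gave 0.684% higher and 1.55% lower for tolerant against naive cells, 1.22% and 0.712% for rejecting against naive cells and 2.71% and 2.26% for rejecting against tolerant cells. Among members detected on both arrays compared, the furthest between tolerant and naive cells were the assembly factor Ndufaf3 (0.54) and Uqcrq (0.39) on the higher side and Cycs (-0.44) and Ndufb5 (-0.37) on the lower side. Under that limit they were, for rejecting against naive cells, Uqcrq (0.34) and Ndufb9 (0.33) against Ndufs5-ps (-0.36) and the complex I subunit Ndufc1 (-0.34). For rejecting against tolerant cells Cycs (0.43) stood highest and Sdhc (-0.31) lowest under that limit. Over all 75 members, levels below detection included, the values ran from -0.44 to 0.54, from -0.38 to 0.34 and from -0.41 to 0.71 for the 3 contrasts.

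Read with its sign, the CD69 difference was lowest in the tolerant pair for 36 of the 75 members (48%, against 39.2% of all features). Among the 45 that rose it was so for 27, where the share over all rising features was 61.2%. Among genes that are not core subunits the tolerant pair was lowest in 8 of 9. A falling member counts only if its fall was largest in the tolerant pair. Cox7a2l, at -1.96, -1.48 and -1.72 in the naive, tolerant and rejecting pairs, is therefore not counted. For Ndufaf4 the pair differences were 2.56 in naive, 1.76 in tolerant and 2.51 in rejecting mice, and for Cyc1 1.61, 1.18 and 1.56. For Ndufs8 the tolerant pair was the furthest apart instead, at 0.98 against 0.75 and 0.66. The difference between pairs was not tested, since each pair is 1 library against 1.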

How the data were processed

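Each of 6 samples was hybridised to 1 single-colour Illumina MouseWG-6 array. Per the file headers, the non-normalized table deposited by the authors gives each probe a linear signal intensity and a detection p-value on every array, with no background correction and no scaling. GenomeStudio 2009.2 is named as the authors' software per the submitters' processing notes. The deposited value table holds intensities with equal medians on all arrays, which served as an alternative. Its method is not given in the sources used here, and its CD69 counts and medians equalled those of no background correction. Slide and scan date are not given there either, so no batch was tested.

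Log2 levels were computed from the deposited intensities with limma 3.58.1 in R 4.3.3 (normexp with background inferred from detection p-values, offset 16, quantile normalization). A probe entered if its detection p-value was below 0.01 on any array, with 1 probe per symbol. Of 45281 probes, 34885 had 1 symbol in the platform annotation, 18 several and 10378 none, and 34807 matched RefSeq gene IDs (GRCm38.p6). CD69 fractions were compared with lmFit and eBayes, 3 arrays against 3, with status as a block, since both fractions of a status came from 1 culture. Statuses were compared over both fractions with fraction as a block, and within a fraction without a test. Fits covered all 10679 features, and the fit was tested on simulated data.

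Ndufa4 was assigned to complex IV, and Ndufaf genes, Cox7a2l and Ndufs5-ps were kept apart as not core. Named genes were the 3 furthest apart per complex and direction among those past the threshold, the Sdh genes, Cycs and Cyc1, isoform sets, the 4 furthest apart per status contrast and fraction, and the 4 with the largest gap between pairs of opposite sign. The members and lists were chosen with earlier results of these data known. Alternatives were the value table, no background correction, median centring, the detection filter dropped or required of all 6 arrays, an offset of 50, the mean of all probes or each probe on its own, robust variance with an intensity trend, each pair or array left out, no block, only the statuses compared, a 2-fold minimum, no signal minimum and a 1.5-fold minimum beside the threshold. Members detected on all 6 arrays were added after seeing the data.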

Additional observations from a re-analysis of the deposited data

Results flagged for a closer look

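In 4 genes the CD69 difference pointed in opposite directions in different status pairs, each pair being 1 library against 1, and this was not tested. They are the 4 with the largest gap among 9 such members, and none passed the CD69 comparison. Ndufaf3, a complex I assembly factor, was at -0.14 in the tolerant and 0.74 in the naive pair. Atp5c1, the central stalk of the ATP synthase, was at -0.15 in the tolerant and 0.35 in the rejecting pair. Atp5h, in its peripheral stalk, was at -0.32 in the tolerant and 0.052 in the rejecting pair. Ndufa3, an accessory subunit of complex I, was at -0.044 in the naive and 0.32 in the tolerant pair.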

How the results depend on the processing

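With 1 value per gene, no named gene that passed changed direction under an alternative. Read from its second probe, Atp5a1 turned from -0.97 to 0.69, Atp5j from 0.50 to -0.61 and Ndufb8 from 0.97 to -0.18. The count of members higher in CD69+ cells ran from 28 to 46 with a status pair left out, where fewer arrays were fitted, and the lower count from 4 to 7. Of the 45, the calls kept without the naive, tolerant and rejecting pairs were 31, 44 and 28. With array medians centred the counts were 50 and 5, and all features then split into 3624 higher and 2617 lower, against 3165 and 3534. A 1.5-fold minimum beside the threshold left 32 and 5. Both fractions of a status were paired by their shared culture. Without the status block the counts were 46 and 7, with 3067 and 3376 of all features. Without the fraction block 0 members were called in each status contrast. Medians of complexes that moved by more than their spread between pairs were as follows. The value table and no background correction both gave 0.34 for complex I and 0.29 for V. Median centring gave 0.65 for I, 0.82 for II, 0.93 for III, 0.60 for IV and 0.68 for all members. The offset of 50 gave 0.41 for I and 0.45 for V. No detection filter gave 0.38, 0.44, 0.43 and 0.40 for I, II, III and V and 0.43 for all members. Detection on all 6 arrays gave 0.53 for I and 0.29 for V, in the refitted table and with the fit unchanged. The mean of all probes gave 0.39 for I, 0.29 for V and 0.43 for all members, and each probe on its own 0.37, 0.75, 0.81 and 0.45 for I, II, III and V. Complex V ran from 0.40 to 0.49 with a pair left out. The causes of these shifts were not tested. Of the named genes, 8 lost their CD69 call and 5 gained one under 1 or more alternatives.

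With single arrays left out, 0 to 1 members were called between tolerant and naive cells, the 1 being Ndufaf4 (-0.90, SE 0.15, adjusted p = 0.0499) without tolerant CD69- cells, where 545 features were called and the lone tolerant array is assumed to vary like the other groups. Within CD69+ cells a 2-fold minimum left 0 members apart for tolerant against naive and 0 for rejecting against tolerant cells, and the mean of all probes left 1 for the latter. Within CD69- cells the mean of all probes and no signal minimum each gave 1 member apart between rejecting and tolerant cells, against 0. Signal over background limits Ndufb2, Cox7a2 and Atp5e, detected on 2 or 3 arrays.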
